A study of Oryza sativa with 36 samples.

Results

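Class I small heat shock protein genes were followed through floret development in rice (Oryza sativa, cultivar IR64). The genes were chosen by a list of 6 gene IDs, a pair on chromosome 1 (Os01g0136100 and Os01g0136200) and a cluster on chromosome 3 (Os03g0266300, Os03g0266900, Os03g0267000 and Os03g0267200), of 37862 gene IDs in the count table. The series set OsEPF1-oe, an IR64 line that overexpresses the gene of the stomatal signalling peptide OsEPF1, against IR64 wild type, at developing stages 1 to 5 and in mature florets, with 3 libraries in each of the 12 groups. Growth cabinets held both lines at day and night temperatures of 30 °C and 24 °C with water always supplied, and the labels name no heat treatment. Developing florets were taken about 75 to 85 days after sowing and each of their libraries mixed RNA of 3 plants. Mature florets were taken after heading and before anthesis, at about 95 days. The labels do not give the promoter of the transgene, and OsEPF1-oe stands for a single transgenic line.

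Small heat shock proteins are chaperones that work without ATP. They bind proteins that are starting to unfold and keep them from aggregating, so that the ATP-driven HSP70 system, with HSP101 of the ClpB family, can refold them. Class I members act in the cytosol, assemble into large oligomers, and in plants are best known for the strong induction that heat stress transcription factors give them at high temperature. Members of the family are also made without heat in developing pollen and in maturing seeds of several plants.

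The 6 genes differed widely in whether they were seen at all. Os03g0267200 had 0 counts in all 36 libraries, which allows up to 0.0511 to 0.170 CPM depending on the library, from a limit of 3 counts (CPM is the count scaled to a fixed library size, after TMM normalization). Os01g0136200 had 0 to 7 counts per library and was left out of the tests by the filter on low counts. The other 4 genes were tested, among 26726 genes in all. Os01g0136100 entered only through its mature libraries, with 20 to 47 counts in mature OsEPF1-oe florets and 8 to 44 in mature IR64 florets, against 0 to 10 counts in any developing library. Os03g0266300, Os03g0266900 and Os03g0267000 were detected in all 36 libraries, so the data on the family are in the main data on 3 genes of the chromosome 3 cluster. Names, lengths and sequences of these IDs were not analysed here, so the class was not checked against an annotation and levels are not compared between genes. Class I genes can be close copies of each other, and the labels do not say how reads shared by copies were counted, so the split of counts within the cluster is uncertain.

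**Figure D1:**
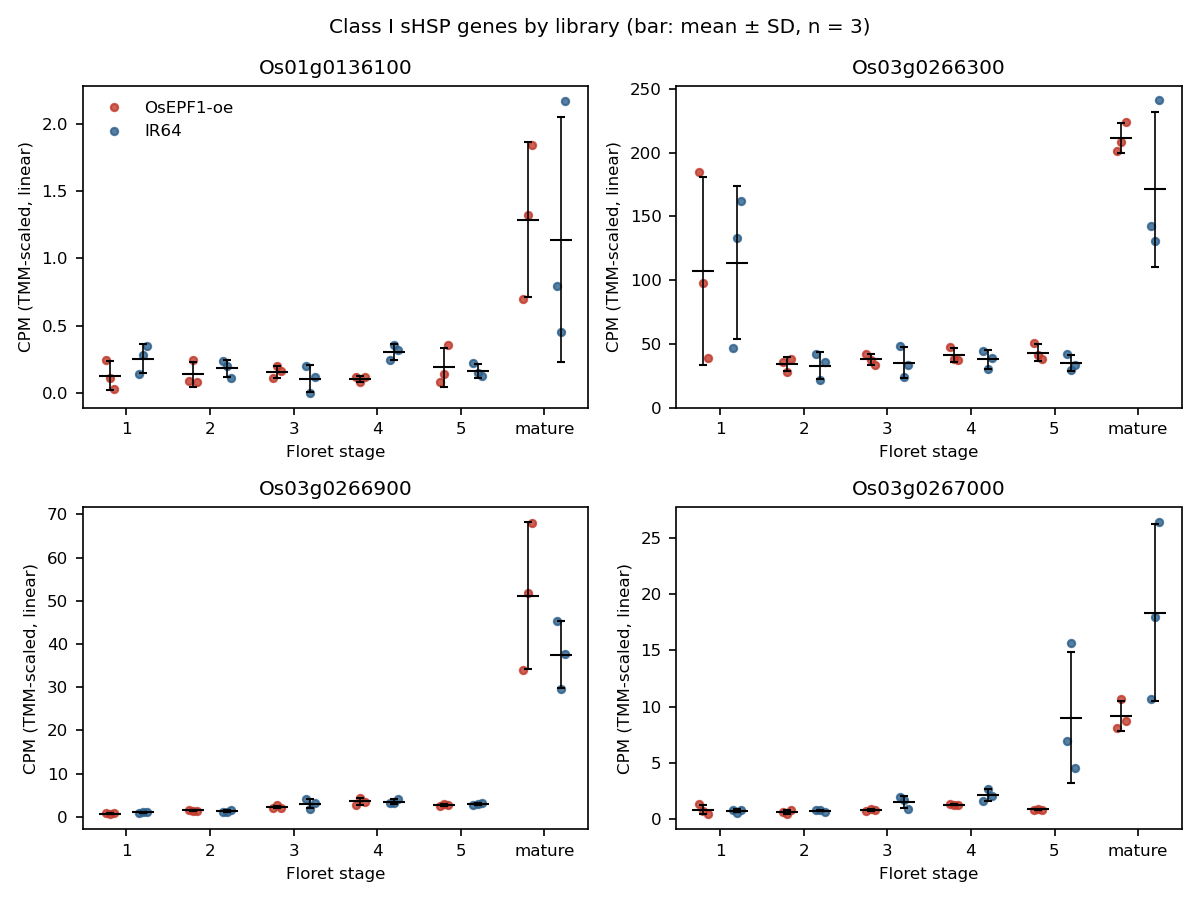
CPM of the 4 tested genes (y axes, linear, each with its own range) by floret stage (x axis), with each point a library, OsEPF1-oe left of IR64, and bars giving mean ± SD of 3 libraries. All 4 genes stand highest on average in mature florets of both lines, which for Os01g0136100 follows from the filter on low counts. Os03g0267000 at stage 5 is at 0.800 to 0.939 CPM in OsEPF1-oe and 4.51 to 15.7 CPM in IR64.

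Library totals ran between 22372257 and 55476576 counts, and replicate libraries of a group correlated at 0.963 to 0.991 over genes, as a description. The transgene check held at every stage: OsEPF1 (Os04g0637300) had 1001 to 3773 CPM in OsEPF1-oe libraries and 0 to 2.50 CPM in IR64 libraries. All 10 IDs listed as floret organ identity genes were detected in both lines, with summed levels of 1705 to 4221 CPM in OsEPF1-oe libraries and 1805 to 4691 CPM in IR64 libraries. The labels call the libraries biological replicates.

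Os03g0267000 was the member that set the lines apart. In stage 5 florets it had 0.800, 0.939 and 0.818 CPM in OsEPF1-oe (20, 20 and 23 counts), against 6.92, 15.7 and 4.51 CPM in IR64 (186, 432 and 106 counts). Every OsEPF1-oe library lay below every IR64 library, and the IR64 libraries themselves spread over a wide range. The means were 0.852 ± 0.0755 CPM in OsEPF1-oe and 9.03 ± 5.87 CPM in IR64 (SD, n = 3 each). The log2 fold change was -3.41 ± 0.40 (SE; edgeR quasi-likelihood test, adjusted p = 3.8e-06), so it was lower in OsEPF1-oe. It was the only call among the 4 tested members at stage 5, where 2.45% of all tested genes were called and 1.31% were called lower. Without IR64 replicate 2, the highest library, the value was -2.75 (adjusted p = 3.6e-05), and in a fit of the 6 stage 5 libraries alone it was -3.42 (adjusted p = 0.0444). Florets hold many cell types, and in such bulk RNA fewer cells of a type and less RNA per cell cannot be told apart.

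At stages 1 and 2 the levels of Os03g0267000 overlapped, with 0.457 to 1.31 CPM in the 6 OsEPF1-oe libraries and 0.564 to 0.811 CPM in the 6 IR64 libraries. At stage 3 it had 0.753, 0.885 and 0.763 CPM in OsEPF1-oe and 1.92, 1.70 and 0.920 CPM in IR64. At stage 4 it had 1.35, 1.26 and 1.22 CPM in OsEPF1-oe and 1.59, 2.66 and 2.06 CPM in IR64. From stage 3 on, no OsEPF1-oe library reached the lowest IR64 library of its stage, but at stages 3 and 4 the gaps were narrow. How many of all tested genes had their lines apart in this way was not counted. The differences at these stages did not pass the test, with a log2 fold change of -0.89 ± 0.40 for stage 3 (adjusted p = 0.439) and of -0.72 ± 0.38 for stage 4 (adjusted p = 0.375). In mature florets the gene had 8.14, 10.7 and 8.75 CPM in OsEPF1-oe and 10.7, 18.0 and 26.4 CPM in IR64. There the highest OsEPF1-oe library and the lowest IR64 library were almost level, and the difference of -1.0 ± 0.34 did not pass the edgeR quasi-likelihood test either (adjusted p = 0.128). Averaged over the 6 stages the gene was lower in OsEPF1-oe, by a log2 fold change of -1.01 ± 0.16 (adjusted p = 6.4e-05), in a comparison that called 10.6% of tested genes.

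The size of the difference depended on the stage. The test of genotype by stage interaction called Os03g0267000 (adjusted p = 0.00338) and none of the other 3 tested members, with 2.24% of all tested genes called. The step between stage 4 and stage 5 differed between the lines by -2.68 ± 0.54 on the log2 scale (OsEPF1-oe step minus IR64 step, adjusted p = 0.0155), in a comparison that called 0.471% of tested genes. The step between stage 5 and mature florets differed in the other direction, by 2.41 ± 0.51 (adjusted p = 0.0152), where 1.62% were called. Both calls depended on single libraries, since without IR64 stage 5 replicate 2 the differences were -2.02 (adjusted p = 0.0701) and 1.75 (adjusted p = 0.0549). The first also missed the threshold without IR64 stage 4 replicate 1 (-2.51, adjusted p = 0.0674) and without OsEPF1-oe stage 5 replicate 3 (-2.66, adjusted p = 0.0549), and both missed it in fits of the 12 libraries concerned (-2.70 with adjusted p = 0.114, and 2.46 with adjusted p = 0.233).

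**Figure D2:**
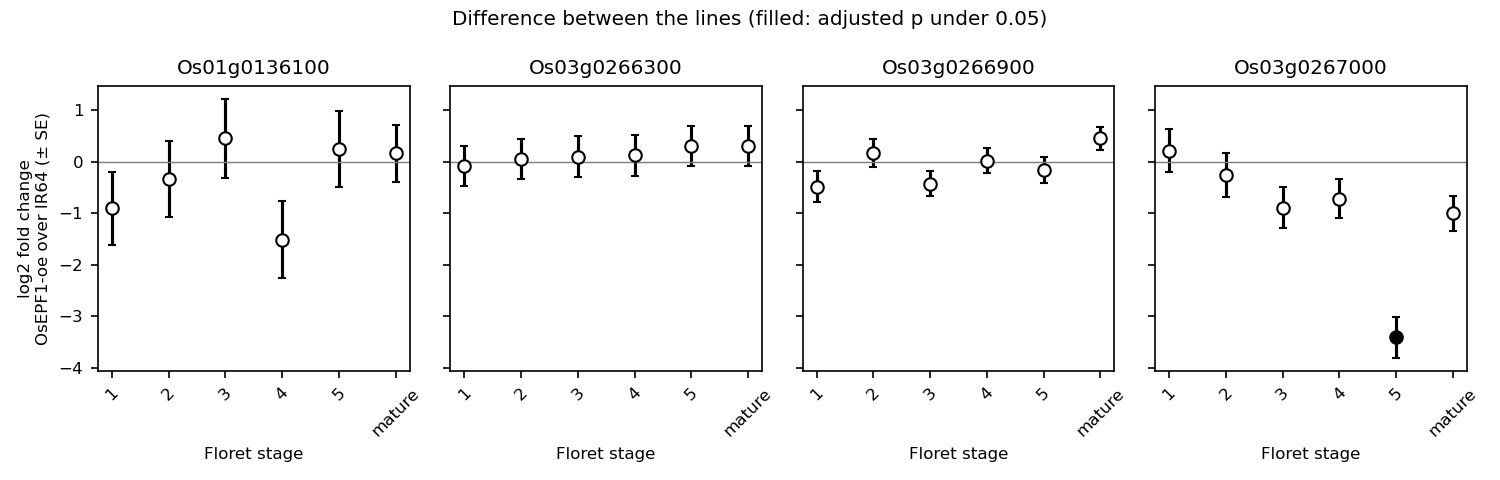
Log2 fold change of OsEPF1-oe over IR64 (y axis, ± SE) at each floret stage (x axis) for the 4 tested genes, with filled points for adjusted p under 0.05. The stage 5 point of Os03g0267000, at -3.41, is the only filled point, and the points of Os03g0266300 stay between -0.08 and 0.30.

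The summed level of genes listed as tapetum genes was also lower in OsEPF1-oe, and at every developing stage. The tapetum is the anther layer that feeds developing pollen and then breaks down. The summed level of the 8 listed IDs at stage 5 was 1081, 519 and 414 CPM in OsEPF1-oe and 3153, 2318 and 1612 CPM in IR64, with no overlap and none of the 8 at 0 in either line. Of the 8 IDs, 4 were lower and none higher in OsEPF1-oe at stage 5 (median log2 fold change -1.96, against 0.01 over all tested genes). Of all tested genes, 1.31% were called lower there. Called lower at stages 1 to 4 were 0, 2, 1 and 2 of the 8 IDs, and none was higher, with medians of -0.10, -0.85, -1.06 and -0.23. At these stages 0.834%, 1.18%, 1.69% and 2.38% of all tested genes were called in any direction. The sums weigh the most abundant IDs most, so they do not show that each ID was lower. The sum lay below IR64 without overlap at the earlier stages too, at 16.4 to 21.3 CPM in OsEPF1-oe and 21.9 to 27.0 CPM in IR64 at stage 1, and 33.7 to 37.0 CPM in OsEPF1-oe and 57.4 to 85.3 CPM in IR64 at stage 2, the stages at which the levels of Os03g0267000 overlapped. It was 148 to 200.4 CPM in OsEPF1-oe and 235 to 381 CPM in IR64 at stage 3, and 229 to 362 CPM in OsEPF1-oe and 397 to 602 CPM in IR64 at stage 4. Among the IR64 libraries of stage 5 the tapetum sum was highest in replicate 1 and Os03g0267000 in replicate 2, and both were lowest in replicate 3. In mature florets the tapetum sum was 101 to 202 CPM in OsEPF1-oe and 184 to 196 CPM in IR64, at a stage where Os03g0267000 averaged above its stage 5 mean in both lines. The 5 IDs listed as meiosis genes changed order between the lines with the stage. They summed to 78.4 to 122 CPM in OsEPF1-oe and 151 to 165 CPM in IR64 at stage 3, to overlapping levels of 179 to 288 CPM in OsEPF1-oe and 208 to 225 CPM in IR64 at stage 4, and to 93.1 to 160 CPM in OsEPF1-oe and 71.0 to 83.2 CPM in IR64 at stage 5. The part of tapetum content or of floret age in the result for Os03g0267000 was not tested.

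**Figure D3:**
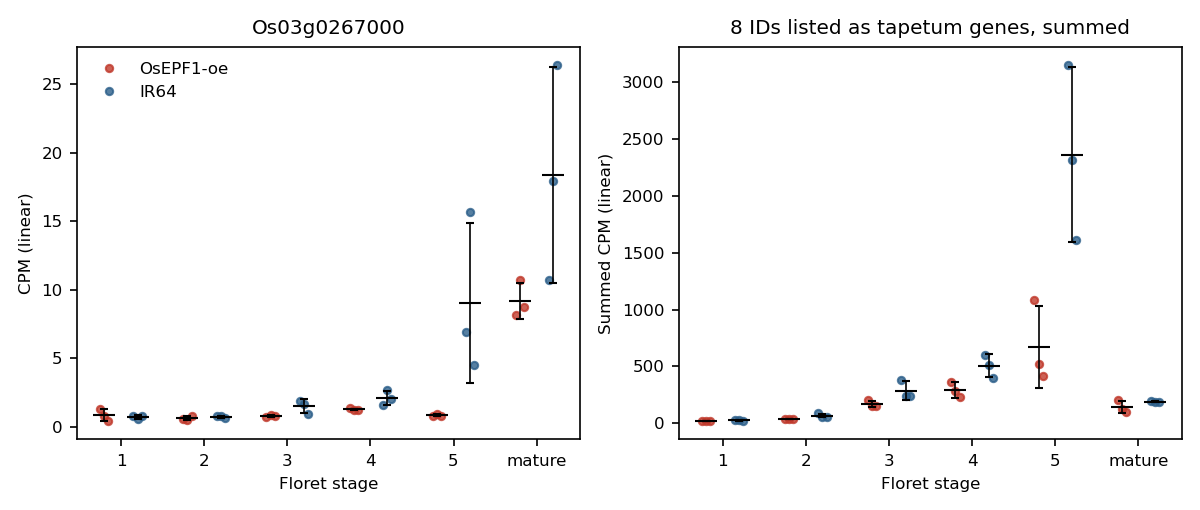
CPM of Os03g0267000 (left) and the summed CPM of 8 IDs listed as tapetum genes (right), both on linear y axes, by floret stage, with points for libraries, OsEPF1-oe left of IR64, and bars for mean ± SD of 3. At stage 5 both panels show every OsEPF1-oe library below every IR64 library, and in mature florets the tapetum sums are at 101 to 202 CPM in OsEPF1-oe and 184 to 196 CPM in IR64.

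The other tested members showed no difference between the lines that passed the test at any stage. None of the 4 tested members was called at stages 1 to 4 or in mature florets, where 0.834%, 1.18%, 1.69%, 2.38% and 2.02% of all tested genes were called. At an unadjusted p under 0.05 there were 0 members at stages 1, 2 and 4, 1 at stage 3 and 1 in mature florets, both times Os03g0267000, and DESeq2 also called 0 members at these 5 stages. For Os03g0266300 the differences were small against their error, between -0.08 ± 0.39 at stage 1 and 0.30 ± 0.40 at stage 5. In mature florets Os03g0266900 had 34.0, 51.7 and 68.0 CPM in OsEPF1-oe and 45.4, 29.7 and 37.6 CPM in IR64. These groups overlapped, and the difference of 0.45 ± 0.22 did not pass (adjusted p = 0.342). At stage 1 the same gene had 0.883, 0.541 and 0.784 CPM in OsEPF1-oe, all below the 0.926, 1.02 and 1.19 CPM of IR64, at -0.48 ± 0.29 (adjusted p = 0.861). Os01g0136100 at stage 4 also had its OsEPF1-oe libraries below those of IR64, with means of 0.104 ± 0.0219 CPM in OsEPF1-oe and 0.305 ± 0.0573 CPM in IR64, but on at most 10 counts per library (-1.51 ± 0.74, adjusted p = 0.338).

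Within each line the main event was maturation. Os03g0266300, Os03g0266900 and Os03g0267000 were higher in mature florets than at stage 5 in both lines, in a step that called 69.3% of all tested genes in OsEPF1-oe and 68.6% in IR64, with 36.1% called higher in each. For Os01g0136100 this direction follows from how it passed the filter, so its step is given as levels only. Os03g0266900 had the largest step. It averaged 51.2 ± 17.0 CPM in mature florets and 2.67 ± 0.257 CPM at stage 5 of OsEPF1-oe, and 37.6 ± 7.84 CPM in mature florets and 2.99 ± 0.321 CPM at stage 5 of IR64 (SD, n = 3 each). The log2 steps were 4.26 ± 0.26 in OsEPF1-oe (adjusted p = 1.3e-14) and 3.65 ± 0.25 in IR64 (adjusted p = 2.3e-13). The lowest mature library, at 29.7 CPM, stood far above the highest developing library, at 4.37 CPM.

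Os03g0266300 had 202, 208 and 224 CPM in mature OsEPF1-oe florets and 142, 131 and 241 CPM in mature IR64 florets. The OsEPF1-oe libraries were close together, while in IR64 replicate 3 stood above the other two. Its step from stage 5 was 2.29 ± 0.41 on the log2 scale in each line (adjusted p = 1.7e-05 in both). Os01g0136100 had 0.696, 1.32 and 1.84 CPM in mature florets and 0.0800 to 0.356 CPM at stage 5 of OsEPF1-oe, and 0.792, 0.453 and 2.17 CPM in mature florets and 0.128 to 0.223 CPM at stage 5 of IR64.

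The steps called for Os03g0267000 were not the same in the 2 lines, though the calls on the difference between the lines depended on single libraries, as given above. In OsEPF1-oe no step up to stage 5 passed the test, and the gene then rose by 3.43 ± 0.40 (adjusted p = 1.1e-08), with no mature library overlapping a developing library of that line. The step to stage 5, at 9.03 ± 5.87 CPM, over stage 4, at 2.11 ± 0.536 CPM, was a rise of 2.10 ± 0.36 in IR64 (adjusted p = 1.8e-04), while in OsEPF1-oe that step was -0.58 ± 0.41 (adjusted p = 0.526). The IR64 step was 1.44 (adjusted p = 0.0050) without IR64 stage 5 replicate 2. The IR64 step from stage 5 to mature florets was 1.02 ± 0.34 (adjusted p = 0.0091), and the libraries overlapped, with 10.7 CPM in the lowest mature library and 15.7 CPM in the highest stage 5 library. That call was lost without mature replicate 3 (0.63, adjusted p = 0.119), without stage 5 replicate 1 (0.86, adjusted p = 0.0513) or replicate 3 (0.70, adjusted p = 0.0751), and in the fit of those 6 libraries (0.98, adjusted p = 0.124), and without stage 5 replicate 2 it was 1.68. The earlier IR64 step between stages 2 and 3, at 0.99 ± 0.40, missed the threshold (adjusted p = 0.082) and passed without stage 3 replicate 3 (1.28, adjusted p = 0.034).

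**Figure D4:**
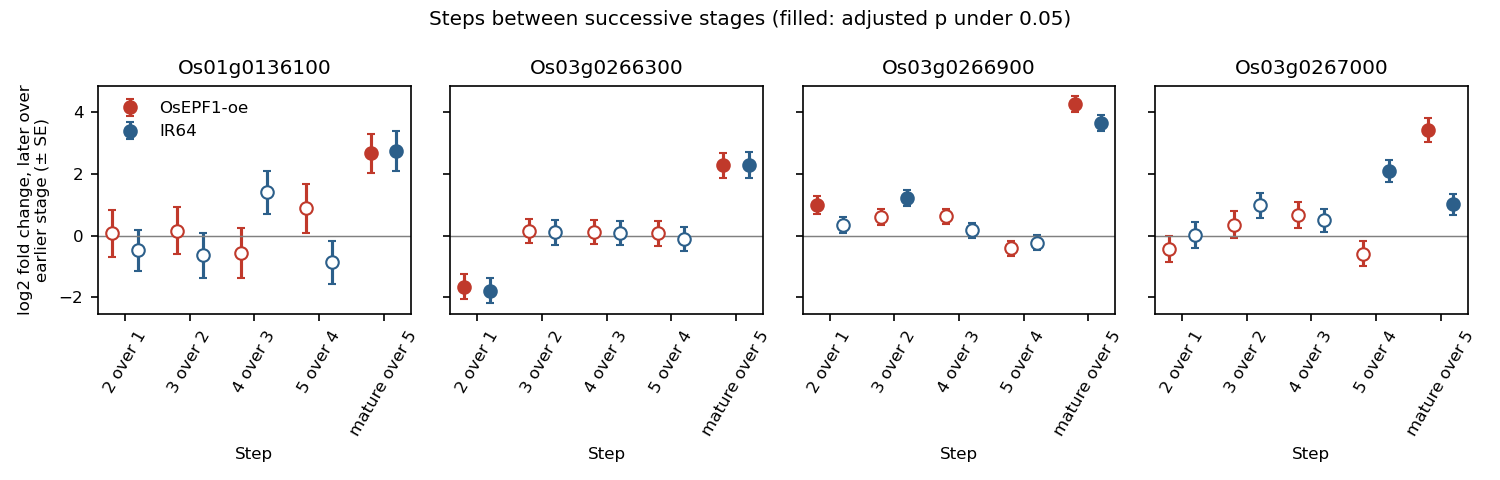
Log2 fold change of each stage over the stage before it (y axis, ± SE) for the 4 tested genes, with OsEPF1-oe left of IR64 in each step and filled points for adjusted p under 0.05. The last step is filled in both lines for all 4 genes, though for Os01g0136100 its direction follows from the filter on low counts, the stage 5 over stage 4 step is filled in IR64 for Os03g0267000 only, and Os03g0266300 has a filled step below 0 from stage 1 to stage 2 in both lines.

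Os03g0266300 was also high in some of the youngest florets. At stage 1 it had 184.7, 98.0 and 38.6 CPM in OsEPF1-oe and 46.5, 133 and 162 CPM in IR64. In each line 2 libraries stood well above the third, and the third lay near the 21.3 to 50.4 CPM of all 24 libraries of stages 2 to 5. At stage 2 the gene had 35.8, 27.9 and 38.4 CPM in OsEPF1-oe and 41.9, 21.3 and 35.5 CPM in IR64. The step from stage 1 to stage 2 was -1.65 ± 0.40 in OsEPF1-oe (adjusted p = 0.0071) and -1.79 ± 0.40 in IR64 (adjusted p = 0.0034). Without OsEPF1-oe stage 1 replicate 1 the first was -0.98 (adjusted p = 0.128), and in fits of the 6 libraries of each step neither passed (-1.67 with adjusted p = 0.142 in OsEPF1-oe and -1.79 with adjusted p = 0.0997 in IR64).

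The 9 IDs listed as other small heat shock protein genes were, as a sum, also uneven over the stage 1 libraries. The summed level of the 9 IDs was 8.71, 8.12 and 2.94 CPM in OsEPF1-oe replicates 1, 2 and 3 and 3.43, 7.05 and 6.04 CPM in IR64 replicates 1, 2 and 3. The lowest library of each line was the library in which Os03g0266300 was lowest, replicate 3 in OsEPF1-oe and replicate 1 in IR64. In IR64 the sum was highest in replicate 2, and Os03g0266300 in replicate 3. The sum weighs the most abundant ID most, so it does not show that each of the 9 ran alike. That ID, Os02g0758000, was at 0.719 to 5.42 CPM in OsEPF1-oe and 1.44 to 5.18 CPM in IR64. The 3 IDs listed as HSP101 or ClpB genes summed to 214, 172 and 174 CPM in OsEPF1-oe and 211, 172 and 225 CPM in IR64. This sum was lowest in replicate 2 of each line, in OsEPF1-oe almost level with replicate 3. Its highest library was the library in which Os03g0266300 was highest, replicate 1 in OsEPF1-oe and replicate 3 in IR64. What set these libraries apart from their replicates was not tested.

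**Figure D5:**
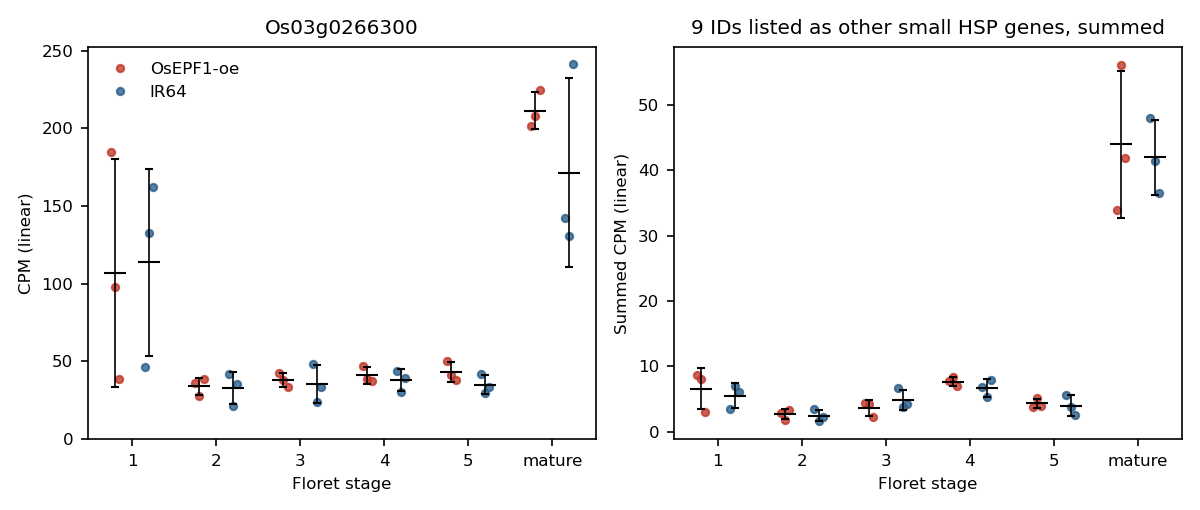
CPM of Os03g0266300 (left) and summed CPM of 9 IDs listed as other small heat shock protein genes (right), on linear y axes, by floret stage, with points for libraries, OsEPF1-oe left of IR64, and bars for mean ± SD of 3. The stage 1 libraries spread over 38.6 to 184.7 CPM in OsEPF1-oe and 46.5 to 162 CPM in IR64 in the left panel. The means of both panels are highest in mature florets. In the left panel the mature IR64 libraries, at 131 to 241 CPM, overlap the IR64 libraries of stage 1.

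Among the developing stages Os03g0266900 had its lowest mean at stage 1 and its highest at stage 4 in both lines. In OsEPF1-oe its mean was 0.736 ± 0.176, 1.49 ± 0.125, 2.30 ± 0.310, 3.54 ± 0.802 and 2.67 ± 0.257 CPM at stages 1 to 5. In IR64 it was 1.05 ± 0.134, 1.31 ± 0.239, 3.07 ± 1.14, 3.49 ± 0.558 and 2.99 ± 0.321 CPM. From low to high the means ran stage 1, 2, 3, 5 and 4 in OsEPF1-oe and stage 1, 2, 5, 3 and 4 in IR64, and the libraries of stages 3 to 5 overlapped with their neighbours in that order in both lines. In OsEPF1-oe the step that passed was stage 1 to stage 2, at 1.00 ± 0.28 (adjusted p = 0.0221), and in IR64 it was stage 2 to stage 3, at 1.22 ± 0.25 (adjusted p = 7.7e-04). The test of the difference between the lines passed for neither step (0.65 ± 0.40 with adjusted p = 1, and -0.60 ± 0.36 with adjusted p = 1.00, in comparisons that called 0.0112% and 0.0262% of tested genes), so the lines were not shown to differ in timing. The OsEPF1-oe call was lost without stage 1 replicate 2 (0.85, adjusted p = 0.121), stage 1 replicate 3 (1.07, adjusted p = 0.0535) or stage 2 replicate 1 (0.94, adjusted p = 0.0938), and in the fit of those 6 libraries (1.00, adjusted p = 0.0622).

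Counted over Os03g0266300, Os03g0266900 and Os03g0267000, the steps called 2, 0, 0, 0 and 3 in OsEPF1-oe and 1, 1, 0, 1 and 3 in IR64, from the first step to the last. With Os01g0136100, whose last step follows from the filter, the count of that step was 4 in each line and the others did not change. The shares of all tested genes called in those steps were 9.06%, 22.4%, 12.1%, 7.73% and 69.3% in OsEPF1-oe and 10.8%, 19.7%, 15.2%, 10.4% and 68.6% in IR64. The comparisons with 0 calls had 1, 1 and 0 members at an unadjusted p under 0.05 in OsEPF1-oe and 0 in IR64, and DESeq2 gave the same counts over the 4 tested members in all 10 steps.

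The wider heat shock system was set beside the members through a list of 30 further IDs, of which 26 were tested. The list holds other small heat shock proteins, HSP101 or ClpB disaggregases, HSP70 and HSP90 chaperones, and heat stress transcription factors (HSF). Between the lines, 1 of the 26 was lower in OsEPF1-oe at stage 1, Os09g0482600, listed as HSP90 (-1.44 ± 0.35, adjusted p = 0.0421), and 1 was lower in mature florets, Os03g0161900, listed as an HSF (-0.86 ± 0.17, adjusted p = 0.0055). At stages 2 to 5 none was called by edgeR or by DESeq2, with 1, 3, 0 and 2 at an unadjusted p under 0.05. At stage 5, where Os03g0267000 was lower in OsEPF1-oe, the median log2 fold change of the list was 0.10, against 0.01 over all tested genes, and the 9 other small heat shock protein IDs summed to 3.84, 5.16 and 3.95 CPM in OsEPF1-oe and 5.62, 3.77 and 2.47 CPM in IR64. These groups overlapped.

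On maturation more than the background share of the list was called higher. One listed HSF gene, Os09g0456800, passed the filter on low counts only through mature libraries and is left out of these counts. From stage 5 to mature florets 16 of the other 25 were higher and 2 lower in OsEPF1-oe (median 0.91 on the log2 scale) and 17 were higher and 2 lower in IR64 (median 1.09), against 36.1% of all tested genes called higher in each line and medians of 0.04 in OsEPF1-oe and 0.02 in IR64 over all tested genes. By class, in OsEPF1-oe 3 of 5 tested other small heat shock proteins, 3 of 3 HSP101 or ClpB, 3 of 4 HSP70, 1 of 4 HSP90 and 6 of 9 HSF genes were higher. In IR64 the counts were 4 of 5, 3 of 3, 3 of 4, 1 of 4 and 6 of 9. The HSP90 share did not exceed that of all tested genes in either line. The summed HSP70 level did not rise, with means of 4451 CPM at stage 5 and 4128 CPM in mature florets of OsEPF1-oe. In IR64 these means were 4531 and 4375 CPM. The most abundant ID listed as HSP70, Os11g0703900, went from a mean of 3678 to 1796 CPM in OsEPF1-oe and from 3737 to 1747 CPM in IR64. Among the small heat shock proteins Os06g0253100 moved most, at 5.60 ± 0.57 in OsEPF1-oe and 5.90 ± 0.59 in IR64, followed by Os02g0758000 at 3.38 ± 0.53 in OsEPF1-oe and 3.36 ± 0.53 in IR64. Among the HSF genes Os07g0178600 fell by 1.90 in OsEPF1-oe and by 1.76 in IR64. The adjusted p of the steps of Os06g0253100, Os02g0758000 and Os07g0178600 was at most 2.4e-06 (edgeR quasi-likelihood test). The 3 IDs listed as pollen genes were at 0.0393 to 3.46 CPM summed in every developing library, and at 180 to 262 CPM in mature OsEPF1-oe and 208 to 320 CPM in mature IR64, so these levels moved with this step as well, and their part in the members' steps was not tested. Of the 10 IDs listed as floret organ identity genes, 9 in OsEPF1-oe and 8 in IR64 were also called higher in this step. A share above that of all tested genes was thus not particular to the heat shock list.

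The members were not alike among themselves outside maturation. Over all 36 libraries Pearson's r of log2 CPM between tested members ran from 0.51 to 0.83, and over the 30 developing libraries from -0.45 (Os03g0266300 with Os03g0266900) to 0.51 (Os03g0266900 with Os03g0267000). These values are descriptions, since libraries of a group share stage and line.

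The genes closest in pattern to each tested member were sought among the 22271 tested genes, other than the members, that averaged 1 CPM or more. The first of them had a higher r with its member over the 36 libraries than any other tested member had, by the smallest margin for Os01g0136100, at 0.860 against 0.781 with Os03g0266900. This sets the highest of 22271 values against those of the few other tested members. It therefore follows in the main from the choice and does not show that members are less alike than other genes. For Os03g0267000 these were Os12g0115300, Os03g0201901 and Os05g0477900, with r of 0.930, 0.927 and 0.923 over 36 libraries and 0.833, 0.830 and 0.816 over the developing ones. All 3 had lower mean stage 5 levels in OsEPF1-oe than in IR64. The means were 0.0981 CPM in OsEPF1-oe and 1.37 CPM in IR64 for Os12g0115300, 0.658 CPM in OsEPF1-oe and 8.53 CPM in IR64 for Os03g0201901, and 1.28 CPM in OsEPF1-oe and 5.76 CPM in IR64 for Os05g0477900. Since the genes were picked for likeness, this is part of that choice. For Os03g0266300 the closest were Os12g0428000, Os01g0719100 and Os05g0151200 (0.957, 0.953 and 0.942). The first of these was uneven at stage 1 too, at 0.0653 to 4.05 CPM in OsEPF1-oe and 0.0232 to 6.10 CPM in IR64, which again is part of the choice. For Os03g0266900 they were Os06g0704600, Os11g0707000 and Os03g0277000 (0.977, 0.977 and 0.975). For Os01g0136100 they were Os01g0940600, Os08g0266300 and Os03g0710600 (0.860, 0.859 and 0.854), and over the developing libraries these dropped to 0.393, 0.529 and 0.374.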

How the data were processed

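RNA-seq of rice florets was available as a table of raw counts per gene, deposited by the authors. Per the labels' protocols, poly(A) RNA was made into libraries with the NEBNext Ultra kit. Per the submitters' processing notes, Trimmomatic 0.38, HISAT2 2.1.0 and featureCounts of Subread 2.0.0 were used with the IRGSP-1.0 build, and the strand and multi-mapping settings are not given in these sources. Lines and stages were taken from the sample titles.

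The counts were filtered with filterByExpr over 12 groups, scaled by TMM and fitted with edgeR 4.0.16 (robust quasi-likelihood, group means of all 36 libraries, 24 residual degrees of freedom, R 4.3.3 with limma 3.58.1). Contrasts compared the lines at each of 6 stages, their mean, the interaction, and 5 steps per line. Genes were called at an adjusted p (Benjamini-Hochberg, across the 26726 genes tested) below 0.05. SE is the absolute log2 fold change over the square root of F. The steps' differences between lines were added after the data had been seen. The fit was tested on simulated data. Limits for 0 counts cover counting error only. Likeness used log2 CPM with a prior count of 2, and the 3 closest genes per member are named. Of the wider heat shock list, classes are counted and up to 2 called genes per class are named. Alternatives were other scalings, filters, DESeq2 1.42.0, a replicate block, fits of the compared libraries alone, and leaving out each library. The members and lists were chosen with earlier results of these data known, and IDs were put in lists from general knowledge that no table here could check. Figures were drawn with Python 3.11.15.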

Additional observations from a re-analysis of the deposited data

Results flagged for a closer look

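Os03g0267000 was flagged because its difference between the lines was not the same at all stages. The interaction of genotype and stage had an adjusted p of 0.00338 (edgeR quasi-likelihood test). Its step from stage 4 to stage 5 differed by -2.68 on the log2 scale (OsEPF1-oe step minus IR64 step), where the gene rose in IR64 and did not in OsEPF1-oe. Its step from stage 5 to mature florets differed by 2.41, with the larger rise in OsEPF1-oe. The 2 steps share the stage 5 libraries, so they are not independent of each other. Both step differences missed the threshold without IR64 stage 5 replicate 2 and in fits of the compared libraries alone. Their tests were added after the data had been seen.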

How the results depend on the processing

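Between the lines, the member calls at each stage, for the mean and for the interaction kept their counts under RLE and upper-quartile scaling, no filter, a filter of 5 CPM in 3 libraries and DESeq2. The counts at each stage also held in fits of the compared libraries, which were not run for the mean or the interaction because these use all 36 libraries. Fits of the compared libraries alone gave 0 members for the stage 1 to 2 step in OsEPF1-oe and 0 in IR64, and 2 for maturation in IR64, where Os01g0136100 was no longer tested. Leaving out 1 library gave 1 to 2 members for the stage 1 to 2 step in OsEPF1-oe and 1 to 2 for the stage 2 to 3 step in IR64.

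Signs turned only where no call was made and only on leaving out 1 library. Between the lines the ranges for Os03g0266300 were -0.74 to 0.31 at stage 1, -0.17 to 0.27 at stage 2, -0.11 to 0.39 at stage 3 and -0.021 to 0.23 at stage 4. They were -0.28 to 0.50 for Os03g0267000 at stage 1, -0.16 to 0.17 for Os03g0266900 at stage 4, and -0.59 to 0.61 at stage 5 and -0.21 to 1.05 in mature florets for Os01g0136100. In OsEPF1-oe steps they were -0.58 to 0.98 (stage 1 to 2) and -0.092 to 0.84 (stage 2 to 3) for Os01g0136100, -0.72 to 0.063 for Os03g0267000 (stage 1 to 2) and -0.050 to 0.19 for Os03g0266300 (stage 4 to 5). In IR64 steps they were -0.12 to 0.13 for Os03g0267000 (stage 1 to 2), -0.19 to 0.34 (stage 2 to 3) and -0.11 to 0.39 (stage 3 to 4) for Os03g0266300, and -0.055 to 0.44 for Os03g0266900 (stage 3 to 4).

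Replicate numbers did not pair the lines: 6 of 18 same-numbered pairs had deviations correlated over 0.1, from -0.28 to 0.19, and 7 libraries of OsEPF1-oe correlated best with their own number. With the number as a replicate block no member count changed, and Os03g0267000 at stage 5 was -3.35.

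The background shares depend on the tool. DESeq2 called 378, 551, 726, 1096, 968 and 967 genes between the lines at stages 1 to 5 and in mature florets. The edgeR counts were 223, 315, 453, 635, 654 and 541. For the interaction DESeq2 called 1504 against 599. Its step differences called 32, 51, 180, 245 and 847 genes against 3, 7, 79, 126 and 434. Fits of the compared libraries called 144, 56, 396, 99 and 8 at stages 1, 3, 4, 5 and mature, against 223, 453, 635, 654 and 541, and 0, 2, 11, 13 and 9 step differences. They called 1122 against 2066 for the OsEPF1-oe step from stage 4 to 5 and 2628 against 4074 for the IR64 step from stage 3 to 4. With upper-quartile scaling 276 of 533 calls in mature florets were higher in OsEPF1-oe, against 206 of 541, and the median of all genes over the IR64 maturation step was -0.15, against 0.02. Low counts limit Os01g0136100 and Os01g0136200 throughout. The cause of these changes was not tested.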
